A study of Mus musculus with 6 samples.

Results

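The genes described here carry cyclic AMP and protein kinase A signalling in TM3 cells, a line established from mouse testis and labelled as Leydig cells. They were taken from the deposited count table by symbol: the protein-coding adenylyl cyclase (Adcy), phosphodiesterase (Pde), protein kinase A regulatory (Prkar) and catalytic (Prkac), A-kinase anchoring protein (Akap), CREB and CRTC families, with Crem, Gnas, Lhcgr, Prlr, Mc2r and Mrap. The choice used names and no measured value, and gave 73 of 54532 genes. The symbol pattern also brought in genes that only share a name, such as Pde4dip, a centrosome and Golgi scaffold, and Pde6d, a prenyl-binding chaperone. RNA sequencing was done on 3 libraries of cells overexpressing A20, the ubiquitin-editing enzyme encoded by Tnfaip3, and on 3 control libraries labelled WT. All 6 are labelled as the same line in the same serum-containing medium, and the labels name no hormone or cAMP treatment. The means of A20 expression, and the number of cultures or clones behind each group, are not given in the sources used here, so p-values measure the spread between these libraries only, which may be technical.

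In Leydig cells luteinizing hormone binds the receptor LHCGR, the stimulatory G protein subunit Gs alpha activates adenylyl cyclase, and the cAMP formed releases the catalytic subunits of protein kinase A from their regulatory subunits. The kinase phosphorylates CREB-family factors and, with the transcription factor SF-1 (Nr5a1), raises the genes of steroid production. Phosphodiesterases break cAMP down, and anchoring proteins hold the kinase at membranes and organelles. Prolactin acts on Leydig cells through PRLR, and MRAP is the accessory protein that brings the ACTH receptor MC2R to the surface in the adrenal cortex.

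Total counts ran from 15097570 to 16917979 in the A20-overexpressing libraries and from 13841287 to 15349354 in control libraries. Levels are given as CPM, the count scaled to the library's total. Where genes are compared with each other, the deposited FPKM is used, which also divides by gene length. Tnfaip3 itself stood at 33.7 to 43.6 CPM in A20-overexpressing libraries, against 11.9 to 30.9 CPM in control libraries (edgeR adjusted p = 0.331 with 6 libraries and 0.000256 without control replicate 1). Control replicate 1 stood apart. Across 13350 genes, which are not independent replicates, Pearson's r of log2 CPM was 0.914 to 0.934 between it and each other library, and 0.958 to 0.987 among the other 5 libraries. The summed level of 9 Leydig cell markers was 2040 CPM in control replicate 1 and 3.97 to 7.86 CPM in the other 5, where Lhcgr, Cyp17a1, Hsd3b1 and Hsd3b6 had no count. Hsd17b3 had none in any library. By these defining markers, the Leydig label is not borne out in 5 of the 6 libraries. Whether control replicate 1 is the same line as the others was not tested, so a control value that includes it may mix unlike cells. Which of them, if either, departs from TM3 cells was not tested either. The edgeR tests below were therefore run with all 6 libraries and again without control replicate 1. Family sums and ratios were tested with all 6 only.

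Of the 73 genes, 9 had no count in any library (the cyclases Adcy2, Adcy8 and Adcy10, the anchoring proteins Akap4 and Akap14, Pde2a, Pde6c, Pde9a and Mc2r). Another 17 stayed under 1 CPM in every library, 10 of them phosphodiesterases, and 47 reached 1 CPM somewhere. The expression filter of the test kept 38. By FPKM, averaged over the 6 libraries, the most abundant were the regulatory subunit gene Prkar1a at 90.7 and the catalytic subunit gene Prkaca at 66.8. The anchoring protein genes Akap8l (48.1), Akap8 (29.2) and Akap12 (26.9) and the cyclase gene Adcy6 (18.4) came next.

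The receptors that feed this pathway were present in 1 library. Lhcgr (ENSMUSG00000024107, GRCm38 chromosome 17, 88741549 to 88791976, minus strand) stood at 7.36 CPM in control replicate 1, from 113 counts, and had no count in the 3 A20-overexpressing libraries or in control replicates 2 and 3. Prlr, the prolactin receptor gene (chromosome 15, 10177238 to 10349180, plus strand), stood at 125 CPM in control replicate 1, with no count in the other 5. Mrap (chromosome 16, 90738207 to 90749785, plus strand) stood at 103 CPM there, from 1583 counts, against 1 count in control replicate 3 and none in the remaining 4. Its partner gene Mc2r had no count in any of the 6 libraries, so a level up to the floor of 3 counts, 0.177 to 0.217 CPM, could have gone unseen. Set against that floor in the shallowest of the other 5 libraries, Lhcgr was at least 34.0-fold and Prlr at least 576-fold higher in control replicate 1. These receptors could not be compared between A20 overexpression and control, since no library but 1 held more than 1 count of any of them. These floors cover counting error only, as the reads carry no molecular identifiers.

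**Figure D1:**
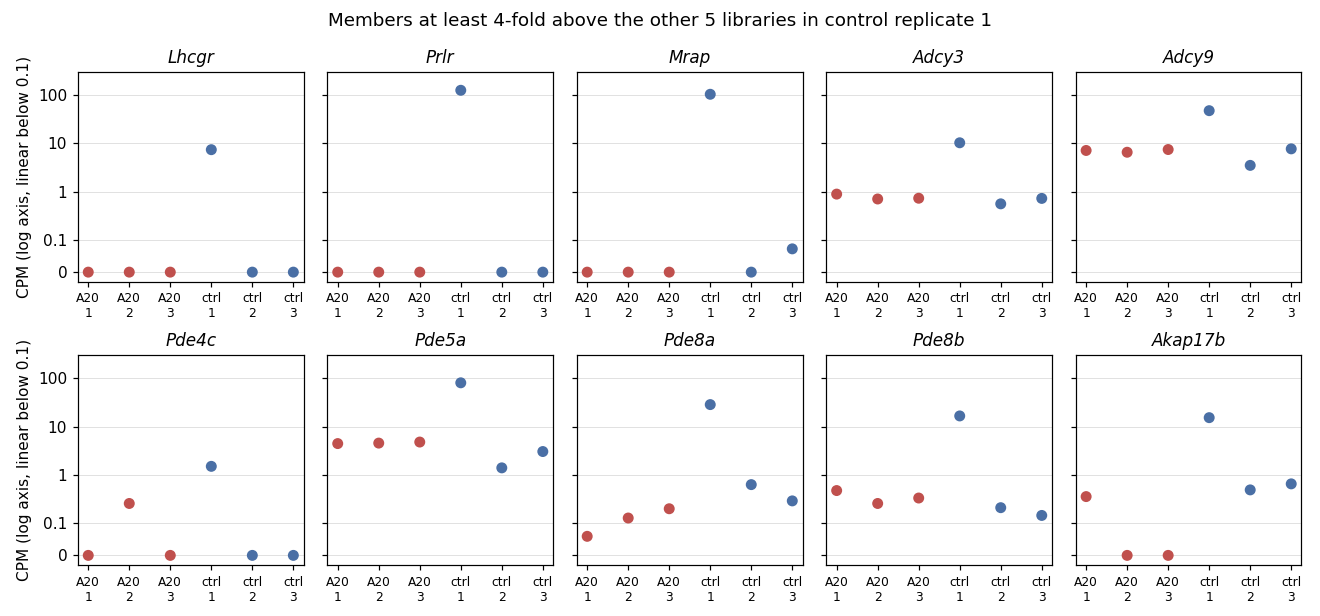
CPM per library (vertical axis, logarithmic above 0.1 CPM and linear below) of the 10 genes that stood at least 4-fold above the other 5 libraries in control replicate 1; red points are A20-overexpressing libraries and blue points control libraries. Control replicates 2 and 3 lie with the A20-overexpressing libraries, and control replicate 1 alone is high, from 1.498 CPM for Pde4c to 125 CPM for Prlr.

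The same library carried another set of cAMP-degrading enzymes. Pde8a, a high-affinity cAMP phosphodiesterase known from mouse Leydig cells, stood at 28.4 CPM in control replicate 1, against 0.0591, 0.128 and 0.199 CPM in A20-overexpressing replicates 1, 2 and 3 and 0.627 and 0.289 CPM in control replicates 2 and 3. Pde8b, its close relative, stood at 16.5 CPM in control replicate 1, against 0.473, 0.256 and 0.331 CPM in A20-overexpressing libraries and 0.209 and 0.144 CPM in control replicates 2 and 3. Control replicate 1 was 45.3-fold and 35.0-fold above the highest of the other 5 libraries in these genes. Pde5a, which hydrolyses cGMP and not cAMP, stood at 80.2 CPM in control replicate 1 and at 1.39 to 4.77 CPM in the others. Pde4c, a cAMP-specific enzyme gene, had 1.498 CPM in control replicate 1 and at most 4 counts in any other library. In FPKM, Pde8a and Pde8b summed to 8.83 in control replicate 1 and to 0.0769 to 0.204 in the other 5. Pde3b, which degrades cAMP and is inhibited by cGMP, went the other way, at 7.30 FPKM in control replicate 1 and 10.99 to 19.6 FPKM in the others.

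Among adenylyl cyclases, the enzymes that make cAMP, Adcy9 and Adcy3 were high in control replicate 1 and Adcy6 was low. Adcy9 stood at 47.2 CPM there, against 6.52 to 7.42 CPM in A20-overexpressing libraries and 3.49 and 7.66 CPM in control replicates 2 and 3. Adcy3 was at 10.2 CPM in that library, against 0.558 to 0.887 CPM in the others. It overlaps Cenpo on the opposite strand (14.7 CPM in control replicate 1 and 10.2 to 12.98 CPM in the others), and the strand setting of the counting is not given in the sources used here. Adcy6 stood at 72.9 CPM in control replicate 1 and at 118 to 157 CPM in the other 5. Adcy6 therefore made up 44.6% of all cyclase FPKM in control replicate 1 and 76.1% to 82.4% in the other 5, while the summed cyclase FPKM was 21.6 there and 22.5 to 28.4 in the others. Adcy7, a cyclase found widely outside the brain, was at 12.9 CPM in control replicate 1, just under the 13.9 to 23.6 CPM of the others. Akap17b, an anchoring protein gene on the X chromosome, stood at 15.2 CPM in control replicate 1 and at 0 to 0.650 CPM in the others.

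In all, 10 of the 47 genes that reached 1 CPM stood at least 4-fold above the other 5 libraries in control replicate 1, and 0 stood at least 4-fold below them. Over all 14884 genes at 1 CPM in some library, 8.06% were that far above and 0.161% that far below. These are values of 1 library with no test. Of the 10 genes, 8 reached 1 CPM in control replicate 1 alone and so were counted only through the library where they were high, as were 944 of the 1199 among all genes, and nothing is read from the count. Among genes at 1 CPM in at least 1 of the other 5 libraries, a restriction chosen after seeing the data, 2 of 39 members (Adcy9 and Pde5a) were that far above, against 1.87% of all 13646. The pathway lists are given in the same way, with no test between them. Of 18 genes listed as steroidogenic and induced through cAMP, 15 reached 1 CPM, and 8 of these were at least 4-fold higher in control replicate 1. They include Star (497 CPM against 2.52 to 4.54 CPM) and Nr5a1 (125 CPM against 0.0697 to 0.596 CPM). Of these 8, 4 reached 1 CPM in that library alone, Nr5a1 among them. Most of the 8, with Star and Nr5a1, are also in the Leydig marker sum above, so they are not separate evidence. Of 27 textbook cAMP and CREB responsive genes 20 reached 1 CPM and 0 were that far above or below. The CREB target Fos stood at 30.0 CPM in control replicate 1 and at 6.13 to 26.0 CPM in the others, and Nr4a1 at 12.4 CPM against 7.88 to 11.8 CPM. Other genes of this list were lowest in control replicate 1, such as Per1 (81.6 CPM against 131 to 329.7 CPM) and Btg2 (16.1 CPM against 20.3 to 45.9 CPM). Other cAMP effectors had 2 of 14 that far above, the Epac2 gene Rapgef4 (7.82 CPM, no count in the others) and the cyclic nucleotide-gated channel gene Hcn2, both at 1 CPM in that library alone. CREB partners had 1 of 12, Fhl2, and G proteins and Gs-coupled receptors 0 of 11.

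Markers of other cell types also moved with control replicate 1, and their part in these values was not tested. Of 8 Sertoli cell markers, 4 reached 1 CPM. Their list summed to 370 CPM in control replicate 1 and to 30.1 to 52.5 CPM in the other 5, mostly from Clu and Gata4, and Sox9, Fshr and Aard were at 0 throughout. The 6 adrenocortical markers summed to 120.1 CPM against 5.79 to 10.3 CPM, mostly from Mrap, with Mc2r at 0 throughout. The 5 endothelial markers summed to 36.7 CPM against 3.31 to 5.11 CPM, mostly from Cdh5 (35.1 CPM against 0 to 0.319 CPM). Egfl7 went the other way (1.04 CPM against 3.05 to 4.47 CPM), and Kdr and Tek were at 0 in control replicate 1. The 6 markers of peritubular myoid cells and fibroblasts summed to 1627 CPM in control replicate 1 and 4465 to 7380 CPM in the others. Most of this sum was Col1a1 (1410 CPM against 4181 to 7149 CPM), and Pdgfra and Dcn were also below the others. The myoid marker Acta2 went the other way (77.6 CPM against 13.4 to 39.2 CPM), as did Myh11, under 1 CPM throughout. Cnn1 lay within the range of the others. The 6 macrophage markers summed to 6.78 CPM against 22.7 to 42.9 CPM, mostly from Cd68, with Adgre1 and Ptprc at 0 throughout. The 7 germ cell markers summed to 9.77 CPM against 6.13 to 12.2 CPM. In bulk RNA, fewer cells of a type and less RNA per cell cannot be told apart.

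Gnas, which encodes Gs alpha, had the smallest p of the 38 genes tested in both fits. It stood at 129, 165 and 149.8 CPM in A20-overexpressing replicates 1, 2 and 3, against 65.3, 86.4 and 79.9 CPM in control replicates 1, 2 and 3. Every A20-overexpressing library was above every control library, and control replicate 1 was the lowest of all. The means were 148 CPM ± 18.1 and 77.2 CPM ± 10.8 (SD, n = 3 each). With 6 libraries, edgeR's quasi-likelihood test gave a log2 fold change of 0.95 ± 0.20 (SE) with an adjusted p of 0.219, not past the threshold (unadjusted p = 0.00109), while DESeq2 called Gnas (adjusted p = 0.00836). Without control replicate 1 Gnas rose 1.74-fold (log2 fold change 0.80 ± 0.15, SE, edgeR adjusted p = 0.00872). Leaving out A20-overexpressing replicate 2 as well ended this call (adjusted p = 0.0579), as did limma-trend on log2(FPKM + 1) (adjusted p = 0.0603). The locus (ENSMUSG00000027523, chromosome 2, 174284320 to 174346744, plus strand) is imprinted and has several start sites whose transcripts share exons. The count covers all of them, and no gene overlapping it in the table reached 1 CPM.

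Crtc3 and Gnas were the members called without control replicate 1. Crtc3, a coactivator that moves to the nucleus when cAMP rises and binds CREB, stood at 17.4, 14.7 and 22.7 CPM in A20-overexpressing libraries, against 29.3, 6.83 and 11.5 CPM in control replicates 1, 2 and 3. Control replicate 1 was above every A20-overexpressing library, whereas the other 2 controls were below each of them. Without it, Crtc3 averaged 18.2 CPM ± 4.05 (SD, n = 3) in A20 overexpression and 9.16 CPM ± 3.29 (SD, n = 2) in control, a log2 fold change of 0.97 ± 0.25 (SE, edgeR adjusted p = 0.0377). With 6 libraries it was 0.27 ± 0.44 (SE, adjusted p = 0.868). The call was lost when any A20-overexpressing library was also left out (adjusted p = 0.0755 to 0.206), when control replicate 2 was also left out (0.175) and in limma-trend (0.152 at a pseudocount of 1).

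The upstream sequences of these genes, and of 2 genes found in control replicate 1, are shown because cAMP acts on many promoters through CREB at the site TGACGTCA or its core TGACG. Each is the 250 bases before a RefSeq start (GRCm38.p6), given on the gene's strand, with TGACG or its reverse complement CGTCA in capitals. For Gnas the start is the one farthest downstream of its 4 windows.
Gnas chr2:174329756-174330005, plus strand: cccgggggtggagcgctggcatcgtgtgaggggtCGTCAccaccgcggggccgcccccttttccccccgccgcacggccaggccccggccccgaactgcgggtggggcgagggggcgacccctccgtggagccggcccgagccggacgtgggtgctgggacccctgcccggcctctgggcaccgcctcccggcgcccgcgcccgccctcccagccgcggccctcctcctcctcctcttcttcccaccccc
Crtc3 chr7:80688878-80689127, minus strand: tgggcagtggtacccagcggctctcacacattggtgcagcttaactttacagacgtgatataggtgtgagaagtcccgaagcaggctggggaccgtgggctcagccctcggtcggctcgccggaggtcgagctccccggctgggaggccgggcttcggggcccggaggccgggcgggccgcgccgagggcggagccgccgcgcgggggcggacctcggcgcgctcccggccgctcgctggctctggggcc
Lhcgr chr17:88792015-88792264, minus strand: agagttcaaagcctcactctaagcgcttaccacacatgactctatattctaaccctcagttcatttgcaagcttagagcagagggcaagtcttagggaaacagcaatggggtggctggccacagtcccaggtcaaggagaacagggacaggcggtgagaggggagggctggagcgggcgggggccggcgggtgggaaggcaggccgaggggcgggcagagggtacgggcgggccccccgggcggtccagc
Pde8a chr7:81213015-81213264, plus strand: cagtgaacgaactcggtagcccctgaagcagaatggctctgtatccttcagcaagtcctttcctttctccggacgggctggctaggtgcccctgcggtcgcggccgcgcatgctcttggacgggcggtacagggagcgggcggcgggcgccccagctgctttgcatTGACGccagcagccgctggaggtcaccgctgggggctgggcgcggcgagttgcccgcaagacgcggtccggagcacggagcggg
The Gnas window holds 1 copy of the core, 216 bases before the start, and the Pde8a window 1 copy, 84 bases before it, while those of Crtc3 and Lhcgr hold none. The full site TGACGTCA, which contains the core on both strands, is in none of these 4. RefSeq windows were found for 57 of the 73 genes, 109 windows in all, since a gene can have several starts. The core was in 23 of them (21.1%), against 17.8% of all 32851 windows of the same length, and the full site in 2 (1.83%), against 1.55%. Those 2 belong to Creb5 and to 1 of 6 starts of Prkar1a. The SF-1 type site CAAGGTCA, searched on both strands, was in 1 window, that of Adcy1 (0.917%), against 1.33% of all. A match is a string of letters only, and its absence says that these letters are not in this window.

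With all 6 libraries, 0 of the 38 genes tested passed edgeR after adjustment, against 0.015% of all 13350 genes (1 higher and 1 lower). At an unadjusted p under 0.05 there were 4 of 38, against 10% of all genes, namely Gnas, Pde3b and Pde4b higher and Akap8 lower. DESeq2 called 1 member, Gnas, and limma-trend 0. The groups did not overlap for 5 of 38, against 16.9% of all genes, namely these 4 and Creb5, a CREB-family factor gene. The median log2 fold change was -0.04 over the members and -0.03 over all genes. Without control replicate 1, edgeR called 2 of 38, both higher, against 4.6% of all 13658 genes (1.92% higher and 2.68% lower), and 10 of 38 had an unadjusted p under 0.05, against 21.6% of all. The median was then 0.08 over the members and -0.0028 over all genes. At an unadjusted p under 0.05, member shares were thus 10.5% against 10% with 6 libraries and 26.3% against 21.6% without control replicate 1. The share without overlap with 6 libraries was 13.2% against 16.9%. After adjustment, the share without control replicate 1 was 5.26% against 4.6%, near that of all genes. No difference between these shares was tested.

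**Figure D2:**
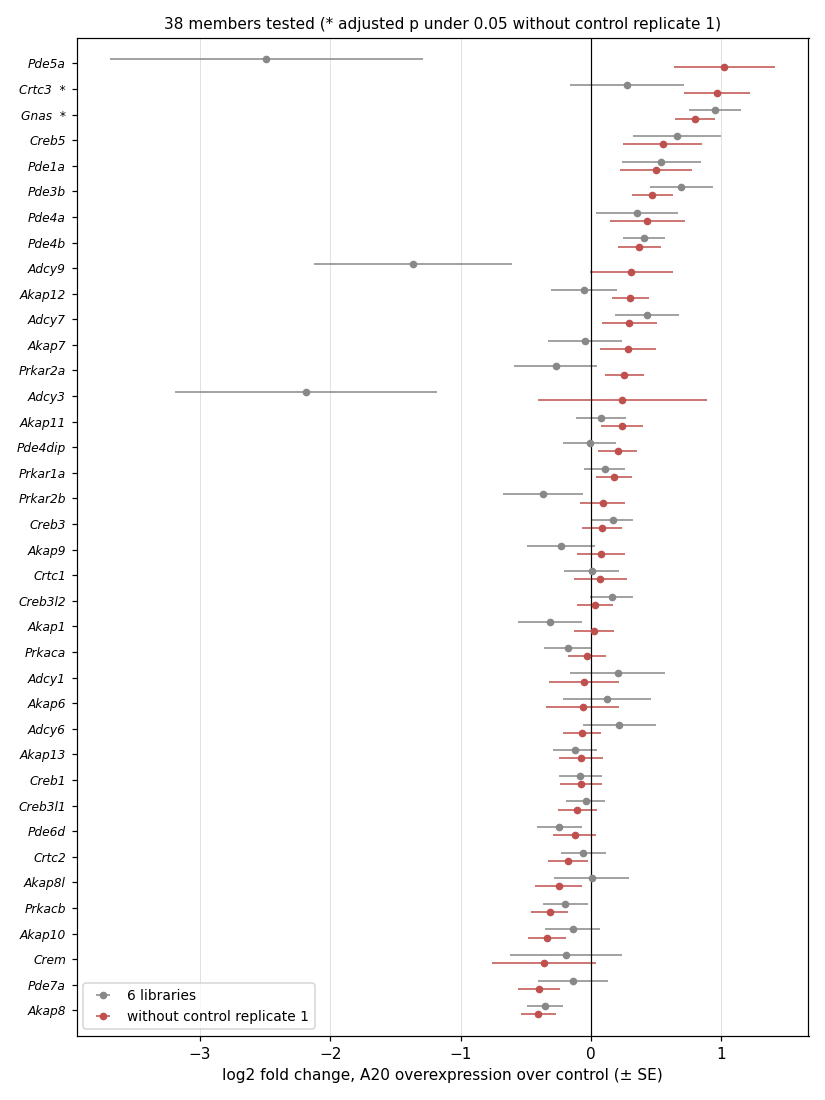
Log2 fold change, A20 overexpression over control (horizontal axis, ± SE), of the 38 genes tested, with all 6 libraries in grey and without control replicate 1 in red; genes are ordered by the latter fit and an asterisk marks an adjusted p under 0.05 there. Pde5a, Adcy3 and Adcy9 are among the genes that change sign between the fits, whereas Gnas, Pde3b and Pde4b lie to the right of 0 in both.

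Pde3b and Pde4b, which both degrade cAMP, had higher values in all 3 A20-overexpressing libraries than in any control library. Pde3b stood at 179.6, 145 and 162 CPM in A20-overexpressing libraries, against 74.1, 127 and 101 CPM in control replicates 1, 2 and 3. Its log2 fold change was 0.69 ± 0.24 (SE, edgeR adjusted p = 0.433) with 6 libraries and 0.47 ± 0.16 (SE, adjusted p = 0.0908) without control replicate 1. Pde4b stood at 48.7, 39.4 and 50.3 CPM in A20-overexpressing libraries, against 36.7, 36.04 and 33.4 CPM in control libraries (log2 fold change 0.41 ± 0.16, SE, adjusted p = 0.475, and 0.37 ± 0.16, adjusted p = 0.195, in edgeR). Neither passed the test in either fit. Pde7a, another cAMP-specific enzyme gene, was at 30.7 to 32.6 CPM in A20-overexpressing libraries and at 44.5 and 37.3 CPM in control replicates 2 and 3, but at 23.6 CPM in control replicate 1. Its log2 fold change of -0.40 ± 0.16 (SE) without that library did not pass (adjusted p = 0.167 in edgeR). Pde5a was at 4.43 to 4.77 CPM in A20-overexpressing libraries and 1.39 and 3.03 CPM in control replicates 2 and 3. Its log2 fold change was 1.02 ± 0.39 (SE, edgeR adjusted p = 0.136) without control replicate 1 and -2.49 ± 1.20 (SE, adjusted p = 0.53) with it. Pde4dip and Pde6d were the other abundant symbols, with log2 fold changes of -0.0087 and -0.24 with 6 libraries and 0.20 and -0.13 without control replicate 1, none past the test.

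**Figure D3:**
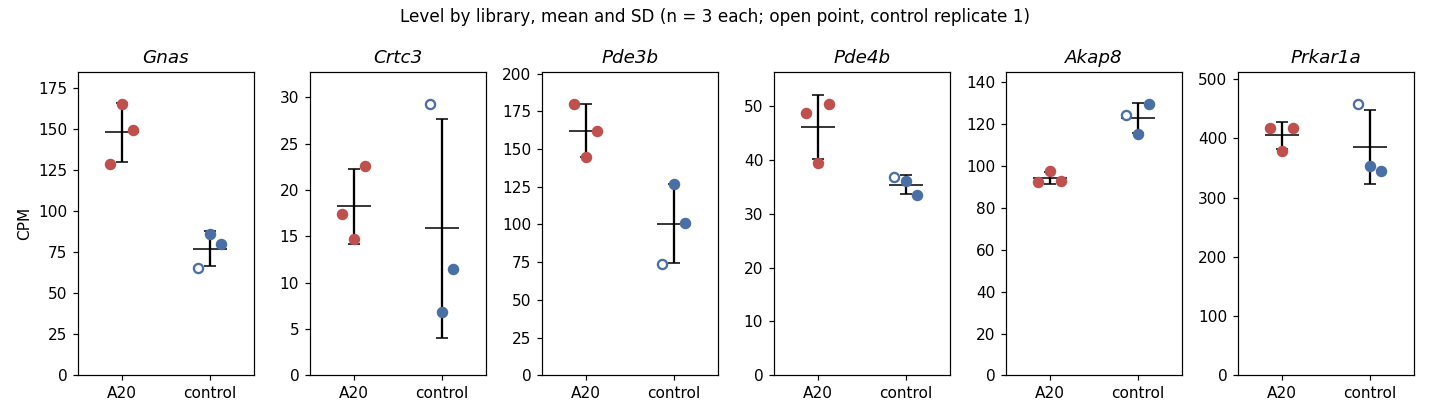
CPM per library (vertical axis, from 0) of 6 members in A20 overexpression (red, left) and control (blue, right); bars are the mean and SD of 3 libraries and the open point is control replicate 1. Gnas, Pde3b and Pde4b do not overlap and are higher in A20 overexpression, Akap8 does not overlap and is lower, and Crtc3 and Prkar1a overlap only through control replicate 1.

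Of the protein kinase A subunits, 5 genes were tested and none passed edgeR in either fit. Prkar1a, the main type I regulatory subunit gene, stood at 418, 379 and 418 CPM in A20-overexpressing libraries, against 457, 354 and 345 CPM in control replicates 1, 2 and 3. Prkaca, the main catalytic subunit gene, stood at 148, 159.6 and 159 CPM in A20-overexpressing libraries, against 233, 168 and 140.4 CPM in control libraries. In CPM, control replicate 1 was the highest library in both. In FPKM this held for Prkaca, while Prkar1a stood at 94.9 in control replicate 1, below 96.1 and 96.5 in A20-overexpressing replicates 1 and 3. Prkacb, the other catalytic subunit gene, was at 83.8 to 94.4 CPM in A20-overexpressing libraries and 94.0 to 118 CPM in control libraries. Over the 5 genes, log2 fold changes ran from -0.37 (Prkar2b) to 0.11 (Prkar1a) with 6 libraries and from -0.32 (Prkacb) to 0.26 (Prkar2a) without control replicate 1. The type II regulatory subunit genes were 2.10-fold (Prkar2b, 77.7 CPM) and 1.99-fold (Prkar2a, 118 CPM) above the highest of the other 5 libraries in control replicate 1. The type II share of regulatory subunit FPKM was accordingly 27.3% in control replicate 1 and 15.7% to 16.97% in the other 5. It averaged 16.3% ± 0.52 in A20 overexpression and 19.99% ± 6.34 in control (SD, n = 3 each, exact permutation test, two-sided p = 0.4). Control replicates 2 and 3 alone averaged 16.35%.

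The ratio of regulatory to catalytic subunit FPKM was 1.66, 1.42 and 1.54 in A20-overexpressing libraries, against 1.39, 1.22 and 1.40 in control libraries. All 3 A20-overexpressing libraries were above all 3 controls. The exact two-sided permutation p was 0.1, the smallest that 3 against 3 can give, and the Benjamini-Hochberg value over the 11 such family quantities computed was 0.367. Summed Pde3 and Pde4 FPKM also did not overlap, with the same p-values: Pde3 averaged 17.9 ± 1.67 in A20 overexpression and 11.05 ± 3.77 in control, and Pde4 averaged 5.82 ± 0.543 and 4.48 ± 0.127 (SD, n = 3 each). Control replicates 2 and 3 alone averaged 1.31 for the ratio, 12.9 FPKM for Pde3 and 4.43 FPKM for Pde4. The smallest p among the other 8 quantities was 0.2.

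**Figure D4:**
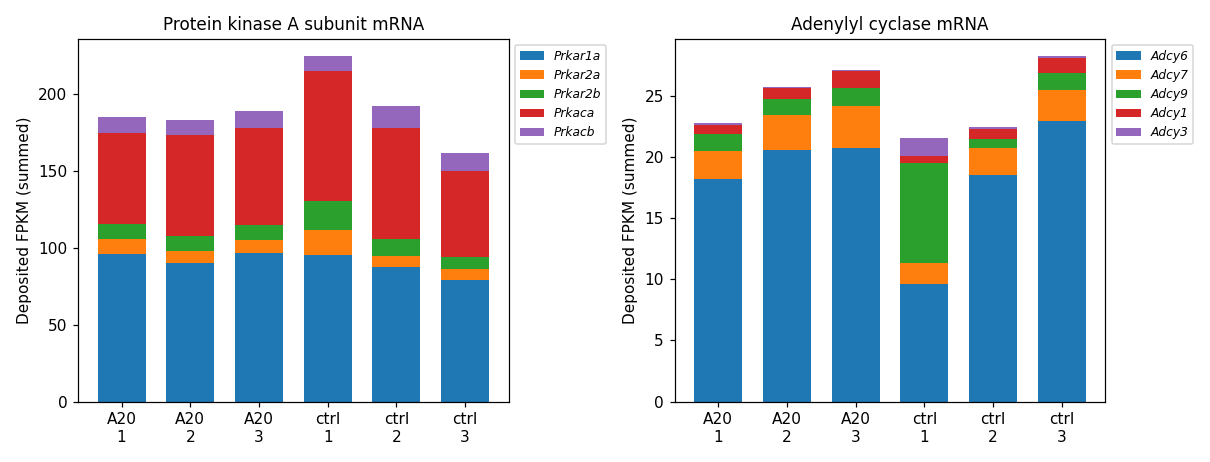
Deposited FPKM per library (vertical axis, summed as stacked bars) of the 5 abundant protein kinase A subunit genes on the left and of 5 cyclase genes on the right, A20-overexpressing libraries first. The green and orange type II parts of the left bars and the green Adcy9 part of the right bars are tallest in control replicate 1, where Adcy6 is 44.6% of the cyclase sum.

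Of 16 anchoring protein genes, 10 were tested and none passed in either fit. Akap8, a nuclear anchoring protein, was at 92.6, 97.7 and 93.0 CPM in A20-overexpressing libraries, against 124, 115 and 129 CPM in control libraries, with no overlap between the groups. Its log2 fold change was -0.35 ± 0.14 (SE, edgeR adjusted p = 0.472) with 6 libraries and -0.41 ± 0.13 (SE, adjusted p = 0.0907) without control replicate 1. Its neighbour in name and sequence, Akap8l, ranged from 88.0 to 118 CPM in A20 overexpression and from 68.5 to 144 CPM in control. Akap12, a scaffold at the plasma membrane, was at 156 to 190.0 CPM in A20-overexpressing libraries, 131 and 137 CPM in control replicates 2 and 3, and 281 CPM in control replicate 1. Akap10 was at 41.9 to 49.4 CPM in A20-overexpressing libraries, 56.8 and 56.9 CPM in control replicates 2 and 3, and 39.9 CPM in control replicate 1. Over the 10 genes, log2 fold changes ran from -0.35 to 0.12 with 6 libraries and from -0.41 to 0.30 without control replicate 1.

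Of the CREB family, the members bound to the endoplasmic reticulum until cleaved, Creb3, Creb3l1 and Creb3l2, were the most abundant, at 17.6, 17.5 and 16.1 FPKM averaged over the libraries. They were at 42.4 to 47.0, 43.0 to 47.3 and 119 to 132 CPM in A20-overexpressing libraries, against 37.8 to 43.1, 45.7 to 48.3 and 100.5 to 127 CPM in control libraries, and their ranges overlapped. Creb3 overlaps Tln1 on the opposite strand, a gene at 304 to 542 CPM. Creb5 stood at 6.44, 7.28 and 9.60 CPM in A20-overexpressing libraries, against 4.63, 4.04 and 6.36 CPM in control libraries, without overlap (log2 fold change 0.66 ± 0.33, SE, edgeR adjusted p = 0.544 with 6 libraries and 0.303 without control replicate 1). Crem, whose short product ICER is itself induced by cAMP, was at 1.71 to 3.51 CPM in A20 overexpression and 2.80 to 3.68 CPM in control. Of the CREB coactivator genes, Crtc2 was the most abundant at 12.1 FPKM averaged over the libraries, and neither it (log2 fold change -0.06, and -0.18 without control replicate 1) nor Crtc1 (0.0055 and 0.07) passed.

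Between A20 overexpression and control, none of the 5 adenylyl cyclase genes tested of 10 passed edgeR in either fit. Adcy6 was at 124, 136 and 141 CPM in A20-overexpressing libraries, against 72.9, 118 and 157 CPM in control libraries, a log2 fold change of 0.22 ± 0.28 (SE) with 6 libraries and -0.07 ± 0.15 (SE) without control replicate 1. Adcy7 was at 15.8 to 23.6 CPM in A20 overexpression and 12.9 to 17.1 CPM in control. The log2 fold changes of Adcy9 (-1.36 ± 0.76, SE) and Adcy3 (-2.19 ± 1.01, SE) with 6 libraries were 0.31 ± 0.32 and 0.24 ± 0.65 without control replicate 1.

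Around these families, Pkia was the gene of the wider pathway that rose among cAMP effectors and modulators. It encodes an inhibitor peptide of the catalytic subunit, and stood at 13.6, 10.4 and 20.5 CPM in A20-overexpressing libraries, against 4.63, 6.83 and 7.01 CPM in control libraries, with no overlap. Without control replicate 1 it was 2.08-fold higher (log2 fold change 1.06 ± 0.28, SE, edgeR adjusted p = 0.0373), and with 6 libraries it did not pass (1.28 ± 0.35, SE, adjusted p = 0.327). It was the 1 gene of 13 called in that list, against 4.6% of all genes. The lists of G proteins and Gs-coupled receptors (0 of 10) and of CREB partners (0 of 12) had none called in either fit, with 0 and 1 of them at an unadjusted p under 0.05 with 6 libraries and 0 and 3 without control replicate 1, against 10% and 21.6% of all genes. In the steroidogenic list, Stard4 was the 1 of 11 called without control replicate 1, against 4.6% of all genes. It fell there by 0.67 on the log2 scale (edgeR adjusted p = 0.0494, just under the threshold). With 6 libraries 0 of 11 were called, against 0.015% of all genes.

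Genes known to respond to cAMP and CREB moved both ways without control replicate 1, with 4 of 20 higher, 2 lower and 14 not past edgeR's test, against 1.92% of all genes higher and 2.68% lower. Cebpb, a transcription factor gene, was 2.78-fold higher, at 120.4, 172 and 139 CPM in A20-overexpressing libraries, against 79.0, 43.3 and 58.3 CPM in control replicates 1, 2 and 3. Inhba, the activin subunit gene, was 2.62-fold higher, at 48.0 to 74.8 CPM in A20 overexpression and 22.9 and 25.4 CPM in control replicates 2 and 3. Sgk1, a kinase gene, was 1.65-fold higher and Ptgs2, the cyclooxygenase gene, 1.52-fold higher. The clock gene Per1 was 1.97-fold lower, at 131 to 190.4 CPM in A20 overexpression and 329.7 and 311 CPM in control replicates 2 and 3, and Btg2 was 1.76-fold lower. Adjusted p in edgeR ran from 0.000161 for Cebpb to 0.041 for Ptgs2 over these 6. In control replicate 1, Inhba (127 CPM) and Sgk1 (98.8 CPM) were above every A20-overexpressing library, and Per1 (81.6 CPM) and Btg2 (16.1 CPM) below each, so that these 4 overlapped between the groups with 6 libraries. With 6 libraries 0 of 19 passed, against 0.015% of all genes, and 3 had an unadjusted p under 0.05, against 10% of all.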

How the data were processed

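Poly(A) RNA of 6 TM3 libraries was sequenced. The deposited table of counts holds whole reads per gene. Per the submitters' processing notes the build was GRCm38, also called mm10; aligner, counter and strand setting are not given in the sources used here. The authors' deposited FPKM equal the count divided by gene length and by 1 library size made by the authors. FPKM served for levels between genes and in limma-trend alternatives. CPM use the total count.

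All genes were tested with edgeR 4.0.16 (R 4.3.3), a quasi-likelihood F test with TMM factors, default filtering by group and robust fitting. P-values were adjusted by Benjamini-Hochberg over every gene tested, with a threshold of 0.05. The approximate SE is the log2 fold change divided by the square root of F. Alternatives used DESeq2 1.42.0 and limma 3.58.1. Only the edgeR procedure was tried on simulated counts, for both sets of libraries, and no simulated library was made to stand apart as control replicate 1 does. Family sums and ratios were tested by exact permutation in Python 3.11.15.

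Members, lists and rules were chosen with earlier results of these data known. Genes named are Gnas, Crem and the receptors, those called in either fit, the 3 most abundant per family by FPKM (2 for Prkac), those at least 4-fold beyond the other 5 libraries in control replicate 1, and those at an unadjusted p under 0.05. Creb5 and the list genes not called (Star, Nr5a1, Fos, Nr4a1, Rapgef4, Hcn2 and Fhl2) were named after their values were seen. There were 5 pathway lists and 7 marker lists.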

Additional observations from a re-analysis of the deposited data

How the results depend on the processing

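With 6 libraries, DESeq2 called 1 member (Gnas) and 162 genes in all, against 0 and 2 in edgeR. Without a filter on low counts 23 genes were called and the median log2 fold change of all genes was -0.16, against -0.03. Limma-trend called 0 genes at either pseudocount. Leaving out each library in turn gave 0 to 2 members and 0 to 628 genes, the upper ends without control replicate 1. Without control replicate 1, 2 members and 628 genes were called. Limma-trend then called 0 members and 235 (pseudocount 1) or 177 (0.1) genes, and 1173 genes were called without a filter. Leaving out a further library gave 0 to 6 members and 142 to 2423 genes. The upper ends came without control replicate 3, which leaves 1 control assumed to vary like the A20-overexpressing libraries. The causes of these differences were not tested. Of the 10 members at least 4-fold higher in control replicate 1, 2 were left when only genes at 1 CPM in another library were counted, a restriction chosen after seeing the data.

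Replicate numbers are shared between the groups, and the labels state no pairing. Same-numbered libraries deviated from their group means together at r = 0.0258, 0.115 and -0.0387, and not every library correlated best with its own number. Control replicate 1 weighs heavily on the control mean, so this check cannot exclude a pairing. The main fits used no block. With a replicate block the counts were 0 members and 2 genes with 6 libraries, and 2 members and 797 genes without control replicate 1.

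Of 54 named values over both fits, 23 changed sign under some alternative, none of them called in the fit where it flipped. With 6 libraries these were, outside left-out libraries, Akap12 (0.0070 and 0.0089 in limma-trend, 0.0062 with the replicate block), Akap8l (-0.0021 with RLE factors, -0.0014 with a filter of 1 CPM in 3 libraries), Crtc1 (-0.0016 with that filter) and Pde4dip (0.011 without a filter, 0.015 and 0.020 in limma-trend, 0.015 with the block). Without control replicate 1 they were Creb3l2 (-0.0090) and Prkaca (0.018), both with the block. With 1 library left out of 6, log2 fold changes ran from -2.67 to 0.24 for Adcy3, -0.066 to 0.50 for Adcy6, -1.84 to 0.31 for Adcy9, -0.34 to 0.0026 for Akap10, -0.21 to 0.30 for Akap12, -0.25 to 0.37 for Akap8l, -0.11 to 0.045 for Creb3l1, -0.37 to 0.058 for Crem, -0.16 to 0.13 for Crtc1, -0.18 to 0.037 for Crtc2, -0.050 to 0.97 for Crtc3, -0.15 to 0.20 for Pde4dip, -3.03 to 1.02 for Pde5a, -0.40 to 0.14 for Pde7a, -0.47 to 0.26 for Prkar2a and -0.62 to 0.091 for Prkar2b. With 1 further library left out they ran from -0.22 to 0.11 for Adcy6, -0.12 to 0.93 for Adcy9, -0.52 to 0.10 for Akap8l, -0.024 to 0.10 for Creb3l2, -0.21 to 0.43 for Crtc1, -0.19 to 0.16 for Prkaca and -0.11 to 0.33 for Prkar2b. Gnas kept its sign throughout, at 0.80 to 1.11 and 0.70 to 0.90.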
